A study of Homo sapiens with 6 samples.

Results

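The genes described here encode the machinery that copies DNA in S phase and the enzymes that make its building blocks. They are 49 genes chosen by name for their roles: factors that license and fire replication origins, replication fork and polymerase subunits, suppliers of deoxynucleotides, regulators of S phase entry and the chromatin assembly factor. All 49 were among the 12760 genes of the deposited table, and all 49 passed the filter of a mean of at least 1 FPKM, which left 11276 genes. FPKM is a read level scaled to gene length and to library size.

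Total RNA of MM.1S cells was sequenced. MM.1S is an established line of multiple myeloma, a cancer of plasma cells. In the resistant group (LenR, 3 libraries) MM.1S cells had been kept in lenalidomide, starting at 10 nM and going up 10-fold per month for 3 months. In the control group (WT, 3 libraries) MM.1S cells had been kept in the solvent DMSO over the same time. The genotype label is WT for all 6 libraries, so the groups differ by treatment history. The labels call the replicates biological. The protocol speaks of a single resistant line and gives no separate selections, so the tests compare these samples and their spread, which may be technical. Drug exposure at harvest and the lasting effect of selection cannot be told apart here. Lenalidomide makes the cereblon ubiquitin ligase degrade the transcription factors IKZF1 and IKZF3, on which myeloma cells depend for growth.

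DNA replication starts at origins, which are licensed in G1 when the origin recognition complex, CDC6 and CDT1 load the MCM2-7 helicase. In S phase the kinases CDC7-DBF4 and CDK2-cyclin E turn the loaded helicase on by adding CDC45 and GINS, and polymerases then copy both strands behind it. Most of these genes are transcribed in late G1 and S phase under E2F transcription factors, and their RNA is known to be highest in dividing cells. In bulk RNA, fewer cells in S phase and less RNA per cell cannot be told apart.

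Library totals, worked out from the FPKM steps, lay between 14496664 and 17383329 reads, and the 49 genes held from 71 reads (POLE2) to 19741 reads (RRM2) in a library. Principal components placed the LenR libraries opposite the WT libraries on the first axis (58.1% of the variance). On the second axis (26.8%) WT replicate 3 and LenR replicate 2 lay together, opposite LenR replicate 3. WT replicates 1 and 2 were the most alike of all pairs, at a median of 1.17 times the chi-square that sampling alone gives, and the next pair, LenR replicates 1 and 2, was at 3.80 times. WT replicates 1 and 2 differed by more than sampling noise on average (a mean of 1.83 times). This cannot show separate cultures, because libraries prepared apart from a single culture could also differ by more than sampling. They were kept as 2 samples, although separate cultures are not documented. When the 2 were averaged, RRM2, CDC6 and CCNE1 did not pass the test given below. Of 11 plasma cell and MM.1S marker names, 10 were in the table, among them SDC1, IRF4 and MAF, summing to 4741 to 5673 FPKM in LenR and 4037 to 4658 FPKM in WT. The T and NK cell markers in the table, CD3E and GNLY, summed to at most 3.87 FPKM in LenR and 4.11 FPKM in WT, and none of the 5 myeloid markers was listed. Of the 7 epithelial and stromal names COL1A1 and VIM were listed (together 238 to 268 FPKM in LenR and 284 to 301 FPKM in WT, nearly all VIM), and of the 4 erythroid names HBB (5.55 to 8.31 FPKM in LenR and 5.83 to 7.11 FPKM in WT). The plasma cell marker sum and VIM did not overlap between the groups, whereas TNFRSF17, MZB1, JCHAIN and MAF each did. JCHAIN, the largest part of the sum, ran from 2198 to 3044 FPKM in LenR and from 1871 to 2423 FPKM in WT. The part of these levels in the results was not tested.

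Promoters of 41 of the 49 genes were in the RefSeq table for GRCh38.p14, each from 250 bases before to 50 bases after a transcription start. Those of GINS1, RRM2 and CDC6 are shown because these 3 genes had the largest decreases past the threshold. Capitals mark E2F words (TTTCCCGC, TTTCCCGG, TTTCGCGC, TTTCGCGG, TTTGCCGC, TTTGCCGG, TTTGGCGC and TTTGGCGG) and the CCAAT box (CCAAT), each searched on both strands. All 3 stretches lie on the plus strand.
GINS1 promoter, chr20:25407423-25407722: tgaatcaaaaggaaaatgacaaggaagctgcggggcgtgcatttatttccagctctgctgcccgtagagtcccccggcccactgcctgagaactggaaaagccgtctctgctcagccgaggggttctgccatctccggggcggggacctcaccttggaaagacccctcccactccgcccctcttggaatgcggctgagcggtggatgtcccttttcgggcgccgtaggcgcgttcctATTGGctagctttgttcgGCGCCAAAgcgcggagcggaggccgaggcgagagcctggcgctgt
RRM2 promoter, chr2:10122489-10122788, one of 2 in the table: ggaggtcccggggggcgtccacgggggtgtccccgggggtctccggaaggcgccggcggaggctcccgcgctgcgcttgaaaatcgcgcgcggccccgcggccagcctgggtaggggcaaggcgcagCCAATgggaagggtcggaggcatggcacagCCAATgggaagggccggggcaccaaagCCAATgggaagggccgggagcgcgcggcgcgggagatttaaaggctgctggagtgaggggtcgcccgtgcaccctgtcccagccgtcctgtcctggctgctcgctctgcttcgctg
CDC6 promoter, chr17:40287629-40287928: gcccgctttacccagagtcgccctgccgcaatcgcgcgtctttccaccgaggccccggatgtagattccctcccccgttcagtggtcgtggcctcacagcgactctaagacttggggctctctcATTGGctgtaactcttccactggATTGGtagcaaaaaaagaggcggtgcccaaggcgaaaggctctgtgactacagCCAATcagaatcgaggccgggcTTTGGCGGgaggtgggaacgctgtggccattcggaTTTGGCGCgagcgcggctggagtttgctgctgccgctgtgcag
The CDC6 stretch holds E2F words at −28 and 8 and the GINS1 stretch one at 6 on the opposite strand, counted to the first base of the word with the transcription start as 1. The RRM2 stretch has no E2F word and has CCAAT words at −123, −93 and −66. E2F words were present for 25 of the 41 genes (61.0%), against 7.44% of all 27303 genes in the promoter table. The CCAAT box was present for 22 of the 41 (53.7%), against 39.7% of all genes. The CHR word TTTGAA, which occurs in promoters of genes expressed in G2 and mitosis, was present for 3 of the 41 (7.32%), against 18.2% of all genes. The genes compared were all those of the promoter table, expressed here or not, and base composition was not matched. Both sets, the 25 genes with an E2F word (median log2 fold change −0.064) and the 16 without one (−0.12), held 2 of the genes that passed the test described next.

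Most of the 49 genes were slightly lower in LenR than in WT cells, and few of the differences passed the test. By limma, 4 genes (8.16%) fell at an adjusted p under 0.05, namely GINS1, RRM2, CDC6 and CCNE1, while 6.57% of all genes tested fell, a share close to that of the 49. None rose, against 8.57% of all genes, so the share called in either direction was 8.16%, against 15.1% of all genes. At an unadjusted p under 0.05, 11 of the 49 were lower and 0 higher, against 12.8% of all genes lower and 28.7% in either direction. Limma-voom on the reads worked out from FPKM called 5 of the 49 lower (10.2%), the fifth being RPA3, and 0 higher, and it called 6.80% of all genes lower. With the closely alike WT replicates 1 and 2 averaged into 1 sample, GINS1 alone of the 49 passed (2.04%), against 4.22% of all genes called lower in that fit, so the share of the 49 was then below that of all genes. Log2 fold changes were below 0 for 41 of the 49 (83.7%), against 50.5% of all genes. Their median was −0.076, against −0.0023 over all genes tested. LenR values all lay below WT values for 18 of the 49 (36.7%), against 16.5% of all genes. None of the 49 had LenR values all above WT values, against 18.0% of all genes. The share without overlap in either direction was thus 36.7% of the 49, close to the 34.5% of all genes.

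**Figure D1:**
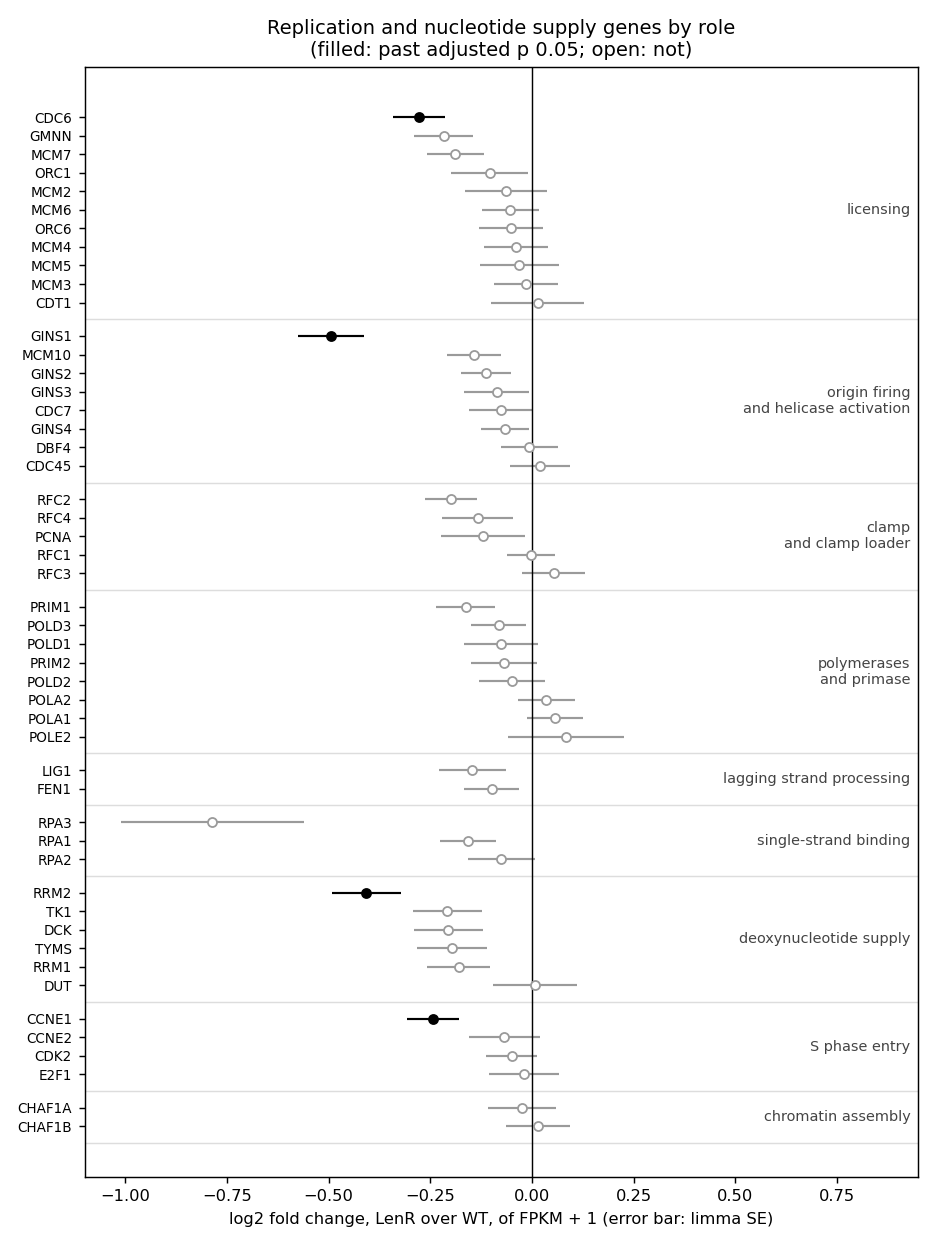
Log2 fold changes of the 49 genes, LenR over WT, on the log2(FPKM + 1) scale, grouped by role; points are limma estimates, bars are standard errors, and filled points passed adjusted p 0.05. The 4 filled points, CDC6, GINS1, RRM2 and CCNE1, lie left of 0, and RPA3 lies farthest left with the widest error bar.

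The changes were small. The median absolute log2 fold change was 0.076 for the 49 genes and 0.12 over all genes tested, and 29 of the 49 lay within 0.1 of 0. The 49 genes were also more abundant, with a median level of 38.8 FPKM in LenR and 40.1 FPKM in WT. Over all genes tested the medians were 12.4 and 12.3 FPKM. The part of expression level in the smaller changes was not tested. For 46 of the 49, the 95% confidence interval from limma lay within a 1.5-fold change in either direction. The intervals of RPA3 (−1.31 to −0.26), GINS1 (−0.68 to −0.31) and RRM2 (−0.60 to −0.21) reached beyond it. Summed over the 49 genes, expression was 2631, 2644 and 2637 FPKM in LenR replicates 1 to 3, against 2870.3, 2870.3 and 2919 FPKM in WT replicates 1 to 3. The groups did not overlap, and the LenR mean differed from the WT mean by −8.63%. RRM2, the most abundant of the 49, made up 31.3% of this difference, and without it the difference over the other 48 genes was −6.66%. The 49 genes made up 0.661%, 0.718% and 0.671% of the FPKM total of the LenR libraries, against 0.736%, 0.737% and 0.772% of the WT libraries.

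Among the 11 licensing genes, CDC6 fell, 10 had log2 fold changes below 0, and none rose; the median was −0.053. CDC6, the ATPase that joins the origin recognition complex to load the helicase (chromosome 17, 40287633 to 40304657, GRCh38), had 30.8, 30.3 and 32.3 FPKM in LenR replicates 1 to 3, against 38.2, 39.0 and 36.7 FPKM in WT replicates 1 to 3. The groups did not overlap, and the lowest WT value, in replicate 3, was 1.13 times the highest LenR value. CDC6 averaged 31.2 ± 1.06 FPKM in LenR and 38.0 ± 1.19 FPKM in WT (SD, n = 3 each; log2 fold change −0.28, SE 0.064, adjusted p = 0.0244). Removal of 1 library ended the CDC6 call in 4 of 6 cases, with adjusted p of 0.0774 without LenR replicate 1, 0.0633 without LenR replicate 2, 0.117 without WT replicate 1 and 0.126 without WT replicate 2.

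The genes of geminin and its target CDT1 did not pass. GMNN, which encodes geminin, the inhibitor of CDT1 that blocks relicensing after S phase begins, had 38.9, 37.8 and 41.0 FPKM in LenR replicates 1 to 3, against 45.2, 48.6 and 43.5 FPKM in WT replicates 1 to 3. All LenR values were below all WT values, and the difference did not pass (log2 fold change −0.22, SE 0.072, adjusted p = 0.0863). CDT1, the helicase loading factor, had 21.8, 22.3 and 18.2 FPKM in LenR replicates 1 to 3, against 19.1, 18.7 and 23.8 FPKM in WT replicates 1 to 3, with overlapping groups (log2 fold change 0.014, 95% interval −0.25 to 0.28, adjusted p = 0.956). The ratio of GMNN to CDT1 FPKM was 1.79, 1.70 and 2.25 in LenR and 2.36, 2.60 and 1.83 in WT replicates 1 to 3, so it overlapped between the groups. The origin recognition complex genes ORC1 (log2 fold change −0.10, adjusted p = 0.534) and ORC6 (−0.051, 0.737) did not pass.

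The 6 genes of the MCM2-7 helicase were at high and similar levels in both groups. Mean levels ran from 79.4 FPKM for MCM6 to 159.7 FPKM for MCM3 in LenR, and from 82.3 to 161 FPKM for the same genes in WT. MCM2, MCM3, MCM4, MCM5 and MCM6 differed by log2 fold changes between −0.064 (MCM2) and −0.014 (MCM3), with adjusted p from 0.683 to 0.932. Their 95% intervals reached down to −0.30 (MCM2) and up to 0.19 (MCM5), which leaves room for changes of that size. MCM7 had the largest difference of the 6. It had 123, 124 and 120.2 FPKM in LenR replicates 1 to 3, against 135, 138 and 146 FPKM in WT replicates 1 to 3. Its groups did not overlap and its difference did not pass (log2 fold change −0.19, SE 0.07, adjusted p = 0.118). MCM7 hosts MIR25 and overlaps AP4M1 on the other strand; the strand setting of the counts is not given in the sources used here, so reads in the overlaps may be shared.

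Of the 8 genes that fire origins and activate the helicase, GINS1 fell and 7 had log2 fold changes below 0 (median −0.082). GINS1 encodes a subunit of the GINS complex, which joins CDC45 and MCM2-7 to form the active helicase (chromosome 20, 25407727 to 25452628, GRCh38). It had 14.3, 14.8 and 16.7 FPKM in LenR replicates 1 to 3, against 21.7, 23.4 and 20.6 FPKM in WT replicates 1 to 3. The highest LenR value was below the lowest WT value, both in replicate 3 of their group. GINS1 averaged 15.3 ± 1.24 FPKM in LenR and 21.9 ± 1.42 FPKM in WT (SD, n = 3 each). In LenR it fell by 30.3% (log2 fold change −0.49, SE 0.081, adjusted p = 0.00526). The call held in all 19 alternatives, with adjusted p from 0.0036 to 0.0398.

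The other 3 GINS subunit genes did not pass. Their log2 fold changes were −0.11 for GINS2 (adjusted p = 0.282), −0.087 for GINS3 (0.534) and −0.066 for GINS4 (0.527). The level of GINS1 relative to its partners was lower in every LenR library. GINS1 over GINS2 was 0.664, 0.697 and 0.731 in LenR replicates 1 to 3, against 0.938, 0.969 and 0.860 in WT replicates 1 to 3. GINS1 over GINS4 was 1.25, 1.34 and 1.47 in LenR, against 1.76, 2.02 and 1.76 in WT. The groups did not overlap in these ratios. For CDC45, which binds GINS in the helicase, the log2 fold change was 0.019 (95% interval −0.15 to 0.19), and for DBF4, the activating subunit of the CDC7 kinase, it was −0.0065 (−0.17 to 0.16). CDC7 itself had a value of −0.076 and MCM10, a scaffold that helps start the helicase, −0.14 (adjusted p = 0.594 and 0.2).

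**Figure D2:**
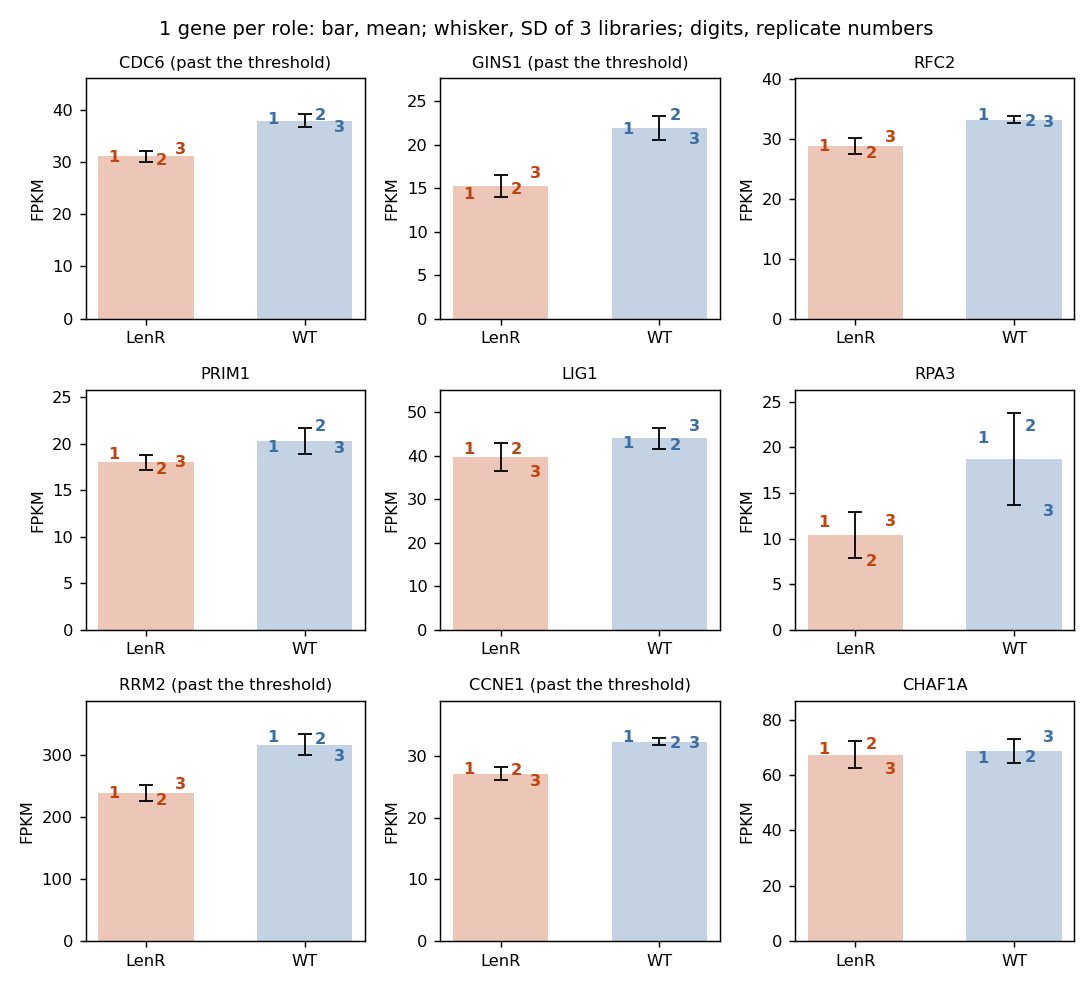
FPKM in each library for 1 gene of each role, LenR left of WT; bars are means, whiskers SDs of 3 libraries, and digits the replicate numbers. CDC6, GINS1, RRM2 and CCNE1 passed the threshold, and RPA3 shows the widest spread, with WT replicate 3 at 13.0 FPKM close to the LenR values.

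No gene of the sliding clamp and its loader passed. PCNA, the clamp that holds polymerases on DNA, had 158, 149 and 181 FPKM in LenR replicates 1 to 3, against 188, 183 and 159.9 FPKM in WT replicates 1 to 3. WT replicate 3 lay within the LenR range, and the difference did not pass (log2 fold change −0.12, SE 0.10, adjusted p = 0.505). RFC2, a small subunit of the clamp loader, had 28.7, 27.6 and 30.2 FPKM in LenR replicates 1 to 3, against 34.0, 33.0 and 32.8 FPKM in WT replicates 1 to 3. Its groups did not overlap (log2 fold change −0.20, SE 0.064, adjusted p = 0.0808), which is short of the threshold. RFC4 had a log2 fold change of −0.13, RFC1, the large subunit, −0.0021, and RFC3 0.053.

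Polymerase and primase genes were the role with the most values above 0, with 3 of 8, and none passed. These 3 were POLA1 (0.056) and POLA2 (0.035), the catalytic and regulatory subunits of polymerase alpha, and POLE2 (0.083), a subunit of polymerase epsilon that was the least abundant of the 49, with 71 to 142 reads per library. The largest difference was that of PRIM1, the catalytic primase subunit, which had 18.8, 17.2 and 18.0 FPKM in LenR replicates 1 to 3, against 19.5, 21.9 and 19.4 FPKM in WT replicates 1 to 3. These groups did not overlap (log2 fold change −0.16, SE 0.072, adjusted p = 0.187). PRIM2, its partner, had a log2 fold change of −0.069. The polymerase delta genes POLD1, POLD2 and POLD3 had values of −0.076, −0.05 and −0.082, and POLD1 over POLD2 was 0.496, 0.522 and 0.455 in LenR, against 0.504, 0.502 and 0.493 in WT replicates 1 to 3. LIG1, the ligase that joins Okazaki fragments, had 41.5, 41.5 and 36.0 FPKM in LenR replicates 1 to 3, against 42.8, 42.4 and 46.7 FPKM in WT replicates 1 to 3. LenR replicate 3 was the lowest and the groups did not overlap (log2 fold change −0.15, SE 0.082, adjusted p = 0.289). FEN1, the nuclease that trims Okazaki fragment flaps, was also without overlap (log2 fold change −0.10, adjusted p = 0.395).

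RPA3 had the lowest log2 fold change of the 49 genes and the largest standard error. It encodes the smallest subunit of replication protein A, which coats single-stranded DNA (chromosome 7, 7636518 to 7718607, GRCh38). It had 11.7, 7.52 and 11.9 FPKM in LenR replicates 1 to 3, against 21.0, 22.3 and 13.0 FPKM in WT replicates 1 to 3. The groups did not overlap, WT replicate 3 was 1.09 times the highest LenR value, and LenR replicate 2 was the lowest. The means were 10.4 ± 2.48 FPKM in LenR and 18.8 ± 5.03 FPKM in WT (SD, n = 3 each; log2 fold change −0.79, SE 0.23, adjusted p = 0.055). The difference passed in 5 of 19 alternatives, with the lowest adjusted p, 0.0012, without WT replicate 3 and LenR replicate 2, and the highest, 0.165, without WT replicate 2 and likewise with WT replicates 1 and 2 averaged. It also passed without WT replicate 3 alone (adjusted p = 0.0107). The changes of the other RPA genes were smaller, at −0.16 for RPA1 (adjusted p = 0.179) and −0.075 for RPA2 (0.62). RPA3 over RPA1 was 0.257, 0.151 and 0.234 in LenR replicates 1 to 3, against 0.390, 0.410 and 0.235 in WT replicates 1 to 3, with LenR replicate 1 above WT replicate 3.

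The RPA3 value was close to those of its chromosome neighbours. All 37 other genes tested within 5 Mb on chromosome 7 had log2 fold changes below 0, with a median of −0.70, and 34 of them passed as lower. RPA3 also overlaps UMAD1, a gene on the other strand with 3.11 FPKM in LenR and 6.02 FPKM in WT, which fell (log2 fold change −0.77, adjusted p = 0.000249). Reads of the overlap cannot be assigned without the strand setting. Around 3 of the 4 called genes the neighbour median was near 0. The median was 0.066 around GINS1 (13 of 19 genes above 0), 0.019 around CDC6 (68 of 121 above 0) and 0.0074 around CCNE1 (13 of 25 above 0). Around RRM2 it was −0.11 (16 of 26 below 0), lower than the median of the 49 genes. The part of the neighbourhood in these differences was not tested.

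**Figure D3:**
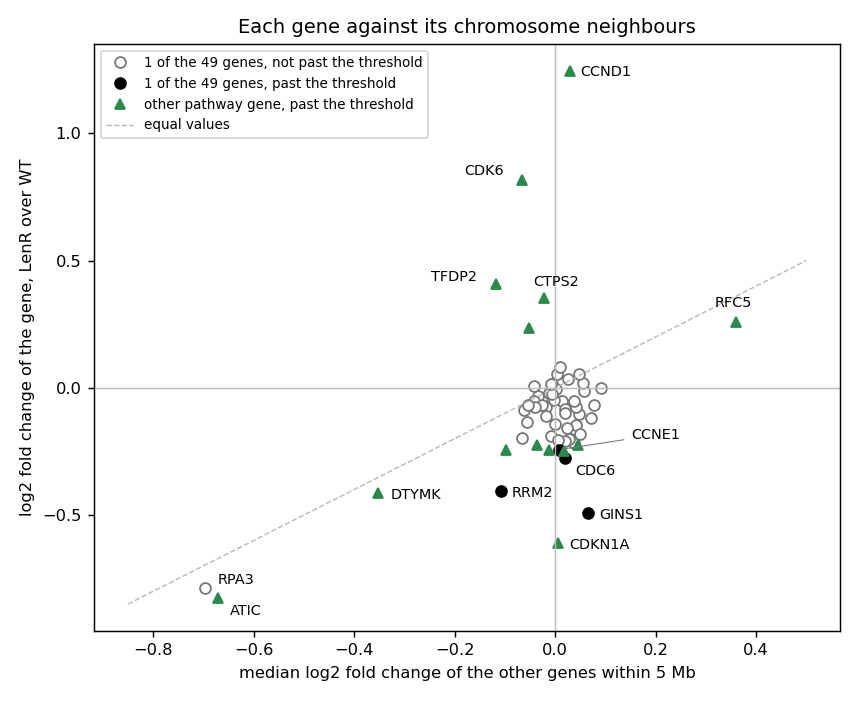
Log2 fold change of each gene, LenR over WT, against the median over the other genes tested within 5 Mb; circles are the 49 genes (filled where past adjusted p 0.05) and triangles the other pathway genes that passed. RPA3, ATIC, DTYMK and RFC5 lie near the dashed line of equal values and away from 0, whereas GINS1, RRM2, CDC6 and CCNE1 lie below it.

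Deoxynucleotide supply had the lowest median of the roles with more than 3 genes, −0.20 over 6 genes, of which RRM2 fell and 5 were below 0. RRM2 encodes the small, S phase-limited subunit of ribonucleotide reductase, which turns ribonucleotides into deoxynucleotides (chromosome 2, 10120698 to 10131419, GRCh38). It had 237, 226 and 252 FPKM in LenR replicates 1 to 3, against 328, 324 and 297 FPKM in WT replicates 1 to 3. The groups did not overlap, and the largest LenR value was 0.849 times the smallest WT value. RRM2 fell by 24.7% in LenR, at means of 238 ± 13.1 FPKM in LenR and 316 ± 16.9 FPKM in WT (SD, n = 3 each; log2 fold change −0.41, SE 0.084, adjusted p = 0.0154). This call did not survive removal of LenR replicate 1 (adjusted p = 0.0597), of WT replicate 1 (0.0932) or of WT replicate 2 (0.0838).

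RRM1, the large catalytic subunit, had 73.4, 79.6 and 85.7 FPKM in LenR replicates 1 to 3, against 90.6, 89.9 and 89.96 FPKM in WT replicates 1 to 3. Its LenR values were all lower, and the difference did not pass (log2 fold change −0.18, SE 0.077, adjusted p = 0.171). The level of RRM1 relative to RRM2 was 0.310, 0.352 and 0.340 in LenR replicates 1 to 3, against 0.276, 0.278 and 0.303 in WT replicates 1 to 3, so it was higher in every LenR library. The thymidine enzymes did not pass. For TYMS, thymidylate synthase, the log2 fold change was −0.20 (adjusted p = 0.182), and for TK1, cytosolic thymidine kinase, −0.21 (0.151), both without overlap of the groups. TYMS overlaps TYMSOS and ENOSF1 on the other strand, whose log2 fold changes were 0.12 and 0.20. DCK, deoxycytidine kinase, had a value of −0.21 (0.159), with WT replicate 3 inside the LenR range. DUT, the dUTPase that keeps uracil out of DNA, had a value of 0.0072 (95% interval −0.23 to 0.25).

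**Figure D4:**
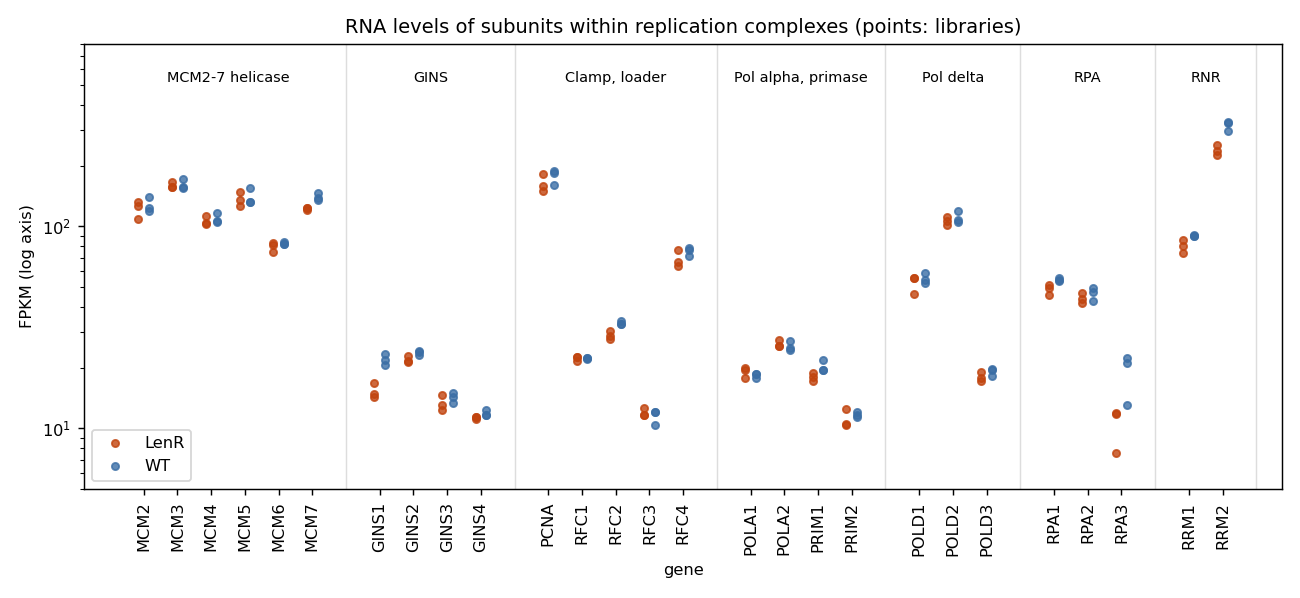
FPKM (log axis) of subunits within 7 replication complexes, 1 point per library, LenR left of WT. RRM2 is the most abundant, and the 6 MCM2-7 genes lie close together. LenR points lie below all WT points for MCM7, GINS1, GINS2, GINS4, RFC2, PRIM1, RPA1, RPA3, RRM1 and RRM2.

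Among the 4 genes of S phase entry, CCNE1 fell and all had log2 fold changes below 0. CCNE1 encodes cyclin E1, which activates CDK2 at the G1/S transition (chromosome 19, 29811898 to 29824308, GRCh38). It had 27.9, 27.8 and 26.0 FPKM in LenR replicates 1 to 3, against 33.1, 32.0 and 32.1 FPKM in WT replicates 1 to 3. The groups did not overlap, and the values within each were tight. The mean was 27.2 ± 1.07 FPKM in LenR and 32.4 ± 0.616 FPKM in WT (SD, n = 3 each; log2 fold change −0.24, SE 0.063, adjusted p = 0.038). Removal of any 1 of the 6 libraries ended this call, at adjusted p of 0.0765, 0.0629 and 0.0886 without LenR replicates 1 to 3, and 0.172, 0.135 and 0.0663 without WT replicates 1 to 3. It also ended when all libraries were set to the same FPKM total (adjusted p = 0.0791). CCNE2, the second cyclin E gene, had a log2 fold change of −0.068 (95% interval −0.27 to 0.13). CDK2, their kinase partner, had a value of −0.051 (95% interval −0.20 to 0.10). E2F1, the transcription factor that switches on many of these genes, had a value of −0.02 (−0.22 to 0.18), with 51.8, 52.9 and 47.1 FPKM in LenR and 48.7, 49.1 and 56.4 FPKM in WT. The E2F1 groups overlapped. The chromatin assembly factor genes CHAF1A and CHAF1B, whose products deposit histones behind the fork, had log2 fold changes of −0.025 and 0.014. CHAF1A had 69.3, 70.9 and 61.9 FPKM in LenR replicates 1 to 3, against 65.9, 66.2 and 73.6 FPKM in WT replicates 1 to 3, with overlapping groups.

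Within each group the 49 genes did not vary together. In 16 of the 49 genes WT replicate 3 was the highest of the WT libraries and LenR replicate 2 the highest of the LenR libraries, among them MCM2, MCM3, MCM4, MCM5, POLD1, LIG1 and E2F1. In 15 others, including PCNA, RFC4, POLE2, RPA3, RRM2 and DUT, these 2 libraries were the lowest of their groups. The same held for 28.0% and 26.4% of all genes tested, so the 49 genes (32.7% and 30.6%) were near the background in this. The 4 called genes had no overlap between the groups, which fixes the sign of their differences in any pairing of libraries, and the sizes are given as a description. Between LenR replicate 2 and WT replicate 3 they were −0.45 for GINS1, −0.39 for RRM2, −0.27 for CDC6 and −0.20 for CCNE1 on the log2 scale. Between the other 2 libraries of each group they were −0.52, −0.41, −0.28 and −0.27 for the same genes.

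**Figure D5:**
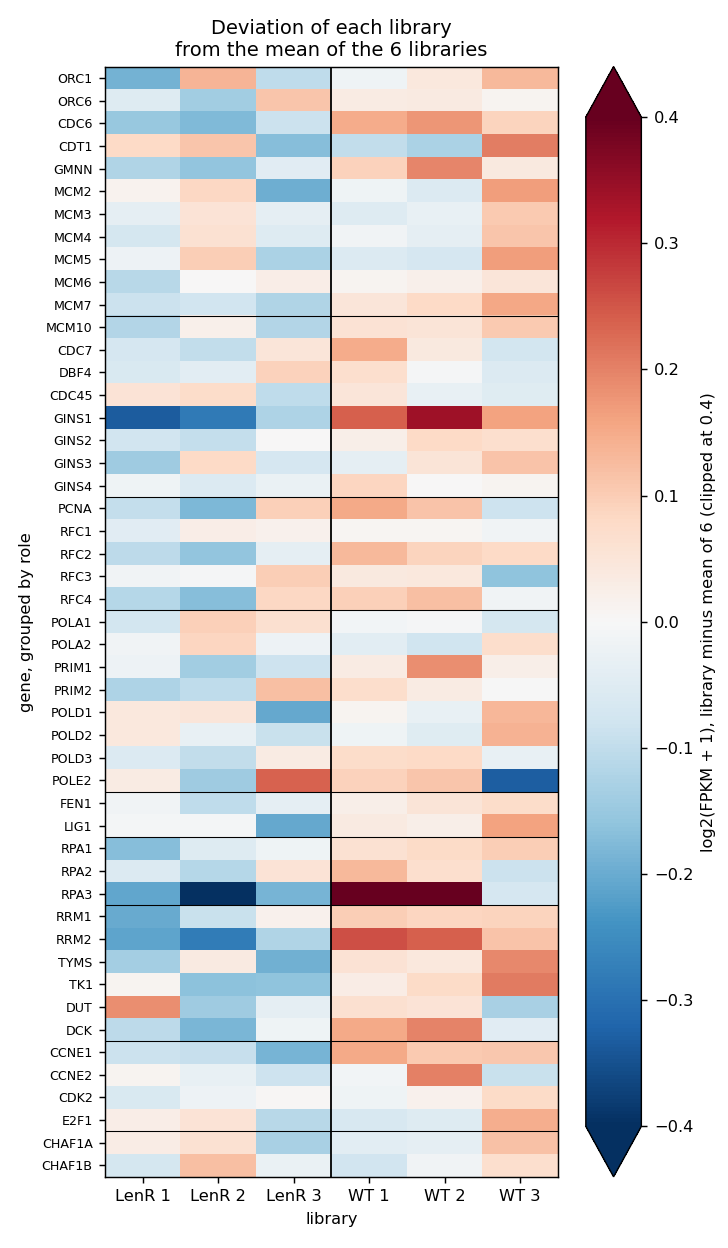
Each library's log2(FPKM + 1) minus the mean of the 6 libraries, for the 49 genes in the order of their roles; LenR libraries are left of the line and WT libraries right of it. GINS1, RRM2, CDC6 and RPA3 are among the genes below the mean in all 3 LenR libraries. MCM2, MCM5 and E2F1 are among those high in LenR replicate 2 and WT replicate 3.

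Of 87 other genes of replication, nucleotide synthesis and G1/S control that were tested, 8 fell (9.20%) and 6 rose (6.90%), against 6.57% and 8.57% of all genes tested. In the 35 other replication genes 2 fell (5.71%) and 1 rose (2.86%), and the median log2 fold change was −0.088. The 2 were ORC3 (−0.22, adjusted p = 0.0489), a subunit of the origin recognition complex, and CLSPN (−0.22, 0.0378), which encodes claspin, an adaptor of the replication checkpoint. RFC5, the remaining small subunit of the clamp loader, rose to 22.5 ± 1.24 FPKM in LenR, against 18.6 ± 0.563 FPKM in WT (0.26, adjusted p = 0.038). Its 66 neighbours within 5 Mb on chromosome 12 had a median of 0.36, with 63 above 0. ORC3 and CLSPN missed the threshold whichever library was removed (highest adjusted p = 0.19 and 0.171), and RFC5 missed it on every removal but that of LenR replicate 1 (highest 0.165).

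Among 29 other nucleotide enzymes 3 fell (10.3%) and 1 rose (3.45%), against 6.57% and 8.57% of all genes tested. ATIC, which completes the purine ring, fell to 40.9 ± 3.04 FPKM in LenR, against 73.1 ± 0.694 FPKM in WT (log2 fold change −0.83, SE 0.075, adjusted p = 0.000365), and its 40 neighbours on chromosome 2 had a median of −0.67, with 38 below 0. DTYMK, which phosphorylates thymidylate, fell (−0.41, adjusted p = 0.046) among 26 neighbours with a median of −0.35, 23 of them below 0. CTPS2, a CTP synthase, rose to 3.38 ± 0.281 FPKM in LenR, against 2.43 ± 0.0632 FPKM in WT (0.35, adjusted p = 0.0138). Of the 6 single removals, DTYMK kept its call only in that of LenR replicate 3 (highest adjusted p = 0.149). CTPS2 lost its call on removal of LenR replicate 1 (adjusted p = 0.0523), of WT replicate 1 (0.0507) and of WT replicate 2 (0.0625).

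Regulators of E2F and the G1/S transition moved in both directions. Of 23, 3 were lower (13.0%) and 4 higher (17.4%), against 6.57% and 8.57% of all genes tested. E2F7, a repressor of E2F targets, fell to 17.8 ± 0.610 FPKM in LenR, against 21.2 ± 0.0510 FPKM in WT (−0.24, adjusted p = 0.0313), and so did the RB relative RBL1 (−0.24, 0.0463) and the CDK inhibitor gene CDKN1A (−0.61, 0.00132). TFDP2, a dimer partner of E2F proteins, rose to 4.17 ± 0.200 FPKM in LenR, against 2.90 ± 0.115 FPKM in WT (0.41, adjusted p = 0.00463). FBXW7, which targets cyclin E for degradation, rose (0.23, 0.0493), as did CDK6 (0.81, 0.000445) and its partner CCND1 (1.25, 6.71e-05). RBL1 and FBXW7 missed the threshold on each single removal (highest adjusted p = 0.171 and 0.147), and E2F7 on all but that of LenR replicate 2 (highest 0.135). The calls of CDKN1A, TFDP2, CDK6 and CCND1 held in all 6.

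GENCODE 29 holds pseudogenes named after 9 of the 49 genes, among them PCNA, RRM2, DUT and TYMS, and none of these pseudogenes was in the table. Reads that match such copies may have been lost or shared in the authors' counting, which limits the absolute levels of these genes. Another gene of the table overlaps 15 of the 49, so reads there may also be shared. NACA (158 FPKM in LenR and 165 FPKM in WT) overlaps PRIM1, and EIF4A2 (400 and 404 FPKM) overlaps RFC4. FEN1 overlaps TMEM258 (log2 fold change −0.042, adjusted p = 0.942) and FADS2, which fell (−0.55, 0.00578).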

How the data were processed

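Total RNA from 6 MM.1S samples was sequenced, 3 LenR and 3 WT, and columns were matched to samples through the sample descriptions. The labels call them biological replicates, and separate cultures are not documented. The authors deposited FPKM values for expressed genes, 1 column per library. Named in the submitters' processing notes, without roles, are edgeR 3.40.2, HISAT2 2.2.1, FastQC 0.11.9, featureCounts 2.0.3 and the build hg38. The sources used here do not give strandedness, annotation or the cutoff for expressed genes.

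From these values, log2(FPKM + 1) was fitted with limma 3.58.1 (R 4.3.3) for the 11276 genes averaging 1 FPKM or more (1484 left out). Group was the only term, the variance prior followed mean level (3.75 prior degrees of freedom), and two-sided p-values were adjusted over all genes tested (Benjamini-Hochberg, 0.05). Called means past this threshold. Adding 1 understates changes of low genes. Whole reads within 0.03 of a read were worked out from the FPKM steps for 12757 of 12760 genes (99.98%) and gave the depth and the voom alternative. Genes described with every library are those called and, in each role with none, the one with the largest change; others were added after their values were seen. Other pathway genes are named where called, except for a gene that is counted but not reported here. The genes and lists were chosen with earlier results of these data known. Positions and overlaps are from GENCODE 29 (GRCh38) and promoters from RefSeq. Alternatives covered the pseudocount, filter, scaling, variance prior, replicate block, single and paired removal of libraries, and averaging of WT replicates 1 and 2. Python 3.11.15 and matplotlib 3.10.9 drew the plots.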

Additional observations from a re-analysis of the deposited data

How the results depend on the processing

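No gene rose among the 49 in any of the 19 alternatives, and 36 to 42 of those tested had log2 fold changes below 0, not always the same genes. GINS1 was lower past the threshold in all 19. Libraries of the same replicate number did not deviate alike from their group means (correlations of deviations 0.024, −0.56 and −0.68 for replicates 1 to 3). With 3 libraries per group these values depend on each other, so they cannot show that the samples were unpaired. The fit with the replicate block called 1 of the 49 lower, and 411 genes lower and 496 higher over the table. It called 2 other pathway genes lower and 3 higher. In the fit of the report these counts were 4, 741, 966, 8 and 6. With WT replicates 1 and 2 averaged they were 1, 476, 579, 2 and 3; the 1 was GINS1 in both. With 1 library left out they ranged over 1 to 4, 461 to 681, 545 to 919, 2 to 4 and 3 to 5, and the median of the 49 over −0.0866 to −0.0735. A filter at a mean of 5 FPKM, which drops POLE2, gave 474 genes lower and 601 higher, and 5 other pathway genes lower and 2 higher. Other pathway genes lower were 3 with the same FPKM total and 5 without WT replicate 3 and LenR replicate 2. The median of the 49 was −0.0812 with median ratio scaling, −0.0858 with quantile normalization, −0.0884 without those 2 libraries and −0.0823 with voom. It was −0.076 in the fit of the report. Apart from −0.0884, these values lay within the range with 1 library left out.

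Uncalled genes near 0 changed sign with quantile normalization MCM3 (0.002), MCM5 (0.002), DUT (−0.0035), with WT replicates 1 and 2 averaged CDT1 (−0.039), DBF4 (0.0079), RFC1 (0.0014), CHAF1B (−0.0046) and without WT replicate 3 and LenR replicate 2 MCM3 (0.0044), CDC45 (−0.033), POLD2 (0.0095), E2F1 (0.0148), CHAF1B (−0.0043). With 1 library left out, these ranges of log2 fold change crossed 0, none of them called: ORC6 −0.12 to 0.0051, CDT1 −0.0462 to 0.12, MCM2 −0.123 to 0.0172, MCM3 −0.0442 to 0.0346, MCM4 −0.0802 to 0.0061, MCM5 −0.0892 to 0.0442, DBF4 −0.0546 to 0.0257, CDC45 −0.0138 to 0.0738, RFC1 −0.016 to 0.0204, RFC3 −0.0139 to 0.0865, POLD1 −0.119 to 0.0074, POLD2 −0.0869 to 0.0078, POLE2 −0.0612 to 0.175, DUT −0.0842 to 0.0795, CCNE2 −0.13 to 0.0162, E2F1 −0.0561 to 0.0477, CHAF1A −0.0627 to 0.0338, CHAF1B −0.0422 to 0.0533. The causes were not tested. Depth limits POLE2 most, with 71 reads in its lowest library, and the SD between replicates limits RPA3.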
